A study of Mus musculus with 2 samples.

Results

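The cells described here are splenic regulatory T cells (Tregs) that held 2 or more molecules, counted by unique molecular identifiers (UMIs), summed over the transcripts of Cybb, Cst7, Sh2d1a and Ptger2. The cells were chosen by their measured UMIs of 12 genes: a cell belonged to the gate if mitochondrial genes gave 10% or less of its UMIs, if it held at least 2 UMIs summed over these 4 genes, and if it held 0 or 1 UMI summed over Ccr2, Ccr3, Itgae and Gzmb and 0 or 1 summed over Il10, Lag3, Ccr8 and Il1r2. The gate held 349 of 1619 kept cells in the PPARg-low library and 313 of 2633 in the PPARg-negative library, 662 of 4252 in all. Another 428 and 663 cells held 1 UMI of the 4 genes, and 708 and 1623 cells held none; the cells with none served as the comparison cells. The 2 libraries, 1 per group, were made from CD4 Tregs of B6 Pparg-Tdt.Foxp3-Gfp mice, male and 8 weeks old, which carry a Tdt reporter of Pparg and a Gfp reporter of Foxp3. In each, spleens of 2 or 3 mice had been pooled before sorting, so no value has a replicate. Intervals are at the 95% level and express counting error, not variation between mice or sorts. The deposited files of the library labelled PPARg-low carry the tag "pos"; the word of the label is used.

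Tregs are the Foxp3-dependent T cells that restrain immune responses, and in the spleen they range between resting cells that recirculate and activated effector cells, some of which give rise to Tregs of nonlymphoid tissues. The 4 genes belong to different systems. Sh2d1a, on the X chromosome, encodes the adaptor SAP, which carries signals from receptors of the SLAM family and is known for its part in contacts between T cells and B cells. Cst7 encodes cystatin F, an inhibitor of lysosomal cathepsins in lymphocytes and myeloid cells. Cybb, also X-linked, encodes the catalytic subunit of the phagocyte NADPH oxidase, and Ptger2 encodes the prostaglandin E receptor EP2, which raises cyclic AMP.

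In mm10, Cybb lies on chromosome X at 9435252 to 9487771, Cst7 on chromosome 2 at 150570415 to 150578944, Sh2d1a on chromosome X at 42502453 to 42529330 and Ptger2 on chromosome 14 at 44988195 to 45003820. All are annotated as protein-coding genes.

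Most gate cells entered through Cst7, Sh2d1a or both, and few through Cybb. Cst7 was detected in 271 of 349 gate cells (77.7%) in the PPARg-low library and in 149 of 313 (47.6%) in the PPARg-negative library. Sh2d1a was detected in 226 (64.8%) and 270 (86.3%). Cst7 was thus the more frequent gene in the PPARg-low gate cells, and Sh2d1a in the PPARg-negative ones. Cybb was found in 59 (16.9%) and 21 (6.71%), and Ptger2 in 60 (17.2%) and 50 (16.0%). Of the UMIs of the 4 genes, Cybb gave 6.46% in PPARg-low and 2.84% in PPARg-negative gate cells. The name of the group, with Cybb first, therefore did not describe the typical member: 1 cell in each library was admitted by Cybb alone, against 62 and 23 by Cst7 alone and 50 and 126 by Sh2d1a alone. These values follow from the gate and are given as a description.

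**Figure D1:**
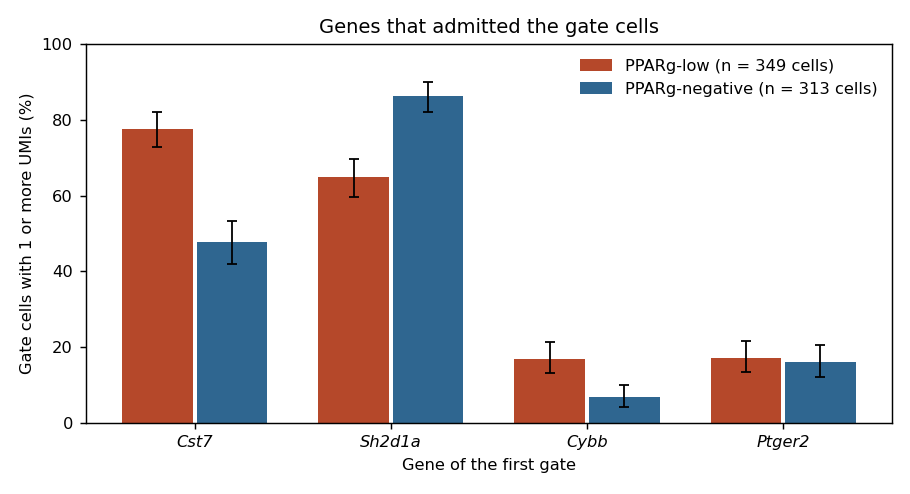
Share of gate cells with 1 or more UMIs of each gene of the first gate, in percent, in the PPARg-low (n = 349) and PPARg-negative (n = 313) libraries; error bars are exact 95% binomial intervals and cover counting error only. Cst7 stands at 77.7% and 47.6%, Sh2d1a at 64.8% and 86.3%, and Cybb at 16.9% and 6.71%.

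No pair of the 4 genes was found together in the same cells more often than apart beyond counting error, at a depth that leaves few cells with Cybb or Ptger2. Among 1381 PPARg-low and 2394 PPARg-negative kept cells with at least 750 UMIs, each thinned to that number, Sh2d1a was detected in 11.3% of the cells with Cst7 (35 of 310; 7.99% to 15.4%) and in 14.2% of those without it (152 of 1071) in the PPARg-low library. In the PPARg-negative library the shares were 14.5% of the cells with Cst7 (17 of 117; 8.70% to 22.2%) and 12.5% of those without it (284 of 2277). Cst7 was detected in 32.6% of the cells with Cybb (14 of 43; 19.1% to 48.5%) and in 22.1% of those without it in the PPARg-low library. In the PPARg-negative library it was detected in 15% of the cells with Cybb (3 of 20; 3.21% to 37.9%) and in 4.80% of those without it. The intervals with and without the given gene overlapped for every pair of the 4 genes in both libraries. Of the gate cells, 114 (32.7%) in the PPARg-low and 153 (48.9%) in the PPARg-negative library held only 1 of the 4 genes, and 5 and 0 held all 4.

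At equal depth the gate held a larger share of the PPARg-low cells. With every cell thinned to 750 UMIs before the gates were applied, 116 of 1381 cells passed in the PPARg-low library (8.40%; 6.99% to 9.99%), against 64 of 2394 in the PPARg-negative library (2.67%; 2.06% to 3.40%). Without thinning the shares were 21.6% and 11.9%, since membership needs UMIs and deeper cells meet it more readily. With Cst7 left out of the gate the thinned shares were 2.17% (1.47% to 3.09%) in the PPARg-low and 1.63% (1.16% to 2.22%) in the PPARg-negative library, with overlapping intervals. With Sh2d1a left out they were 5.65% and 0.710%. Cells with less than 20% of their UMIs from ribosomal protein genes are called ribosome-poor here. Among these the shares were 9.35% (7.34% to 11.7%) and 5.69% (3.68% to 8.34%), with overlapping intervals. Among the other cells they were 7.34% (5.46% to 9.61%) and 2.03% (1.45% to 2.75%).

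The kept cells held 2901710 UMIs in the PPARg-low library and 5897260 in the PPARg-negative library, with medians of 1517 and 2171 per cell. Of the deposited barcodes, 5 occurred in both libraries, and none of them was a gate cell. Gate cells were deeper than the cells with none of the 4 genes, with medians of 2112 against 1051 UMIs in the PPARg-low and 2668 against 2027 in the PPARg-negative library. Of the gate cells, 35.5% in the PPARg-low and 12.5% in the PPARg-negative library were ribosome-poor, against 71.3% and 25.9% of the cells with none. For the comparisons that follow, each gate cell was therefore paired with the cell with none of the 4 genes that was nearest in total UMIs. This left 324 pairs in the PPARg-low and 310 in the PPARg-negative library, and 25 and 3 gate cells had no partner within the allowed distance, with medians of 4456 and 12119 UMIs. Median depth was then 2043 in gate and 1866 in comparison cells of the PPARg-low library, and 2656 in both of the PPARg-negative library. The ribosome-poor share was 37.0% against 43.8% in the PPARg-low and 12.6% against 9.68% in the PPARg-negative library. In the PPARg-negative library the median ribosomal share stayed lower in gate cells, at 34.0% against 38.3%, and its part in the results was not tested beyond the matched alternatives given with them.

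**Figure D2:**
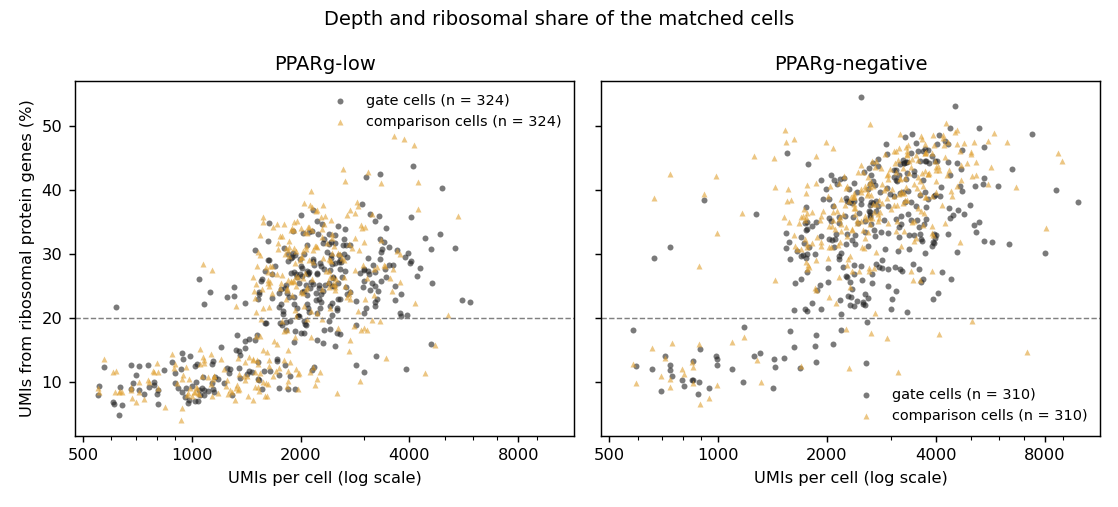
Total UMIs per cell (log scale) and percent of UMIs from ribosomal protein genes for the matched gate cells (dark circles) and comparison cells (amber triangles) of the PPARg-low library (left, 324 of each) and the PPARg-negative library (right, 310 of each); the dashed line marks 20%. Gate and comparison cells cover the same depths, and the PPARg-low library has more cells under the line, 37.0% of its gate cells against 12.6% of the PPARg-negative gate cells.

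The gate cells bore the markers of T cells. Every gate cell in both libraries held UMIs of a 7-gene T cell list, and Cd3d, Cd3e, Cd3g, Cd4, Cd28, Lck and Trac each had a ratio above 1 over the comparison cells, between 1.02 and 1.22 in the PPARg-low and between 1.26 and 1.43 in the PPARg-negative library. Foxp3, the lineage factor of Tregs, gave 18 UMIs in gate cells against 17 in comparison cells of the PPARg-low library, and 22 against 15 in the PPARg-negative library. Pparg gave 9 UMIs in gate and 12 in comparison cells of the PPARg-low library, and 0 in both of the PPARg-negative library. Neither reporter gene differed between gate and comparison cells beyond counting error. Of the other lineages, Pax5 of B cells was at 0 in all gate cells, and the NK cell, erythroid and plasma cell lists summed to between 2 and 8 UMIs in each library. The myeloid list gave 18 UMIs in all gate cells of the PPARg-low library and 9 in those of the PPARg-negative library.

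The B cell list gave 337 UMIs in gate cells against 310 in comparison cells of the PPARg-low library, and 375 against 83 in the PPARg-negative library. Single cells held part of that excess: 25 of the 26 Cd79a UMIs, all 20 of H2-Aa and 83 of the 234 of Cd74 in the PPARg-negative gate cells lay in 1 cell for each gene. The list was also detected in more cells, 90 of 313 PPARg-negative gate cells (28.8%) against 53 of 310 matched comparison cells (17.1%). Of these, 45 gate and 16 comparison cells held 2 or more UMIs of the list. Without cells that held 5 or more UMIs of other lineages, 20 of the 28 genes called in both libraries below remained. Among the named genes, the PPARg-low calls of Nt5e (1.49) and Egr1 (1.68; 0.920 to 3.17) and the PPARg-negative call of Vim (0.680) ended. Without cells that Scrublet marked or that held 2 or more such UMIs, 8 of the 28 remained, Tbc1d4, Izumo1r and Crip1 among them. That filter left 211 of 349 PPARg-low and 236 of 313 PPARg-negative gate cells. In matched PPARg-low gate cells Cd74 gave 304 of the 337 B cell list UMIs. Bst2, also in the interferon response list used below, gave 110 of the 113 dendritic cell list UMIs there. Whether the cells left out belonged to other lineages was not tested.

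A gene is called here if its level in CPM, its UMIs summed over cells and scaled to an equal total, differed between gate and comparison cells at least 1.5-fold with the interval of the ratio on the same side of 1 and with 30 or more UMIs in all. In the PPARg-low library 139 genes of 5130 were higher in gate cells (2.71%) and 133 were lower (2.59%). In the PPARg-negative library 287 of 5185 were higher (5.54%) and 70 were lower (1.35%). With ratios taken relative to the median gene, which stood at a log2 ratio of 0.02 and 0.08, the PPARg-negative split was 208 higher and 127 lower. In both libraries 23 genes of 4689 were higher (0.491%) and 5 were lower (0.107%).

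Tbc1d4 and Izumo1r were the leading genes higher in both. Tbc1d4, on chromosome 14 at 101442360 to 101609191, encodes a Rab GTPase-activating protein known for control of glucose transporter traffic in muscle and fat. It gave 69 UMIs in gate cells against 7 in comparison cells of the PPARg-low library, a ratio of 9.04 (4.16 to 23.3), and 75 against 30 in the PPARg-negative library, a ratio of 2.49 (1.61 to 3.94). The UMIs were spread over 48 and 49 gate cells, with at most 4 in any. Its call remained in 17 of 18 alternative settings in the PPARg-low and 16 of 18 in the PPARg-negative library.

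Izumo1r, on chromosome 9 at 14885814 to 14903949, encodes folate receptor 4, a surface marker of Tregs and of follicular T cells. It gave 1151 UMIs against 619 in the PPARg-low library, a ratio of 1.71 (1.55 to 1.88), and 1350 against 855 in the PPARg-negative library, a ratio of 1.57 (1.44 to 1.72). Among the cells that passed the other gates, Izumo1r stood at 1412 CPM with 2 UMIs of the 4 genes and 1677 CPM with 3 or more in the PPARg-low library, against 1234 CPM just outside the threshold, with 1 UMI, and 1275 CPM with none. In the PPARg-negative library it stood at 1348 and 1702 CPM inside, against 1121 CPM with 1 UMI and 1024 CPM with none. Tbc1d4 stood at 59.8 CPM with 2 UMIs and 125 CPM with 3 or more in the PPARg-low library, against 47.9 CPM with 1 and 19.9 CPM with none. For Tbc1d4 in the PPARg-negative library, cells with 2 UMIs, at 45.4 CPM, did not stand above those with 1, at 53.0 CPM, and cells with 3 or more stood at 149 CPM, against 36.2 CPM with none. The median depth of these classes was also higher with more UMIs, at 1929 and 2401 inside against 1481 and 1002 outside in the PPARg-low library, and 2595 and 2845 inside against 2349 and 2075 outside in the PPARg-negative library.

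The other named genes higher in both were Cd83, Cd200, Nt5e, Egr1, Eea1, Mmd, Ephx1, Plgrkt, Bcl2a1b and Arhgef3. Cd83, a surface protein of activated lymphocytes and dendritic cells, gave 269 UMIs against 146 in the PPARg-low library (1.69; 1.38 to 2.08) and 71 against 23 in the PPARg-negative library (3.08; 1.90 to 5.16). Cd200, the ligand of an inhibitory receptor on myeloid cells, gave 48 against 22 (2.0) and 58 against 31 (1.86). Nt5e, which encodes the ecto-enzyme CD73 that makes adenosine, gave 94 against 54 (1.60) and 63 against 27 (2.32). These surface molecules were higher in gate cells of both libraries.

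Egr1, an immediate early gene of T cell receptor signalling, gave 38 UMIs against 17 in the PPARg-low library (2.05; 1.13 to 3.87) and 25 against 10 in the PPARg-negative library (2.49; 1.16 to 5.81). Eea1, the early endosome antigen, gave 47 against 17 (2.54) and 30 against 5 (5.98). Mmd gave 115 against 53 (1.99) and 56 against 13 (4.29), Ephx1, an epoxide hydrolase, 78 against 39 (1.83) and 68 against 31 (2.19), and Plgrkt, a plasminogen receptor, 146 against 86 (1.56) and 96 against 57 (1.68). All were higher in gate cells in both libraries, with small sums behind Egr1 and Eea1. Bcl2a1b, of the anti-apoptotic A1 family, had ratios of 1.74 and 2.13, but shares near-identical sequence with its paralogs, so its reads may be split among them. Arhgef3, a guanine nucleotide exchange factor, had ratios of 1.87 and 1.82; its PPARg-low call ended, as did that of Cd200, when the comparison cells also had to pass the other 2 gates.

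Few genes were lower in both, and those calls rested on which comparison cells were taken. Crip1, a small LIM domain protein, gave 566 UMIs against 1078 in the PPARg-low library (0.482; 0.434 to 0.534) and 753 against 1328 in the PPARg-negative library (0.565; 0.516 to 0.618), with 154 of the last sum in 1 cell. Vim, the intermediate filament protein vimentin, gave 188 against 386 (0.447) and 206 against 345 (0.595). Both were lower in gate cells of both libraries. Sdc4, a heparan sulfate proteoglycan of the cell surface, gave 15 against 32 (0.430) and 11 against 29 (0.378), and Cd7 had ratios of 0.533 and 0.508.

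The gate itself limits UMIs of Ccr2, Ccr3, Itgae, Gzmb, Il10, Lag3, Ccr8 and Il1r2, and the comparison cells were not limited in this way. With comparison cells that also passed the other 2 gates, 27 genes were higher in both libraries and 0 were lower, and 17 of the 28 genes called in both remained. Vim was then at 0.691 in the PPARg-low and 0.745 in the PPARg-negative library, and Crip1 at 0.579 and 0.698; only the PPARg-low Crip1 call was kept among these. Tbc1d4 and Izumo1r remained called in both libraries.

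Klf2, the factor that maintains S1pr1 in recirculating T cells, was lower in PPARg-low gate cells, with 144 UMIs against 339 (0.390; 0.318 to 0.475), and the call remained in all 18 alternative settings. In PPARg-negative gate cells Klf2 gave 682 UMIs against 885 (0.768; 0.694 to 0.849), which is under the 1.5-fold limit.

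**Figure D3:**
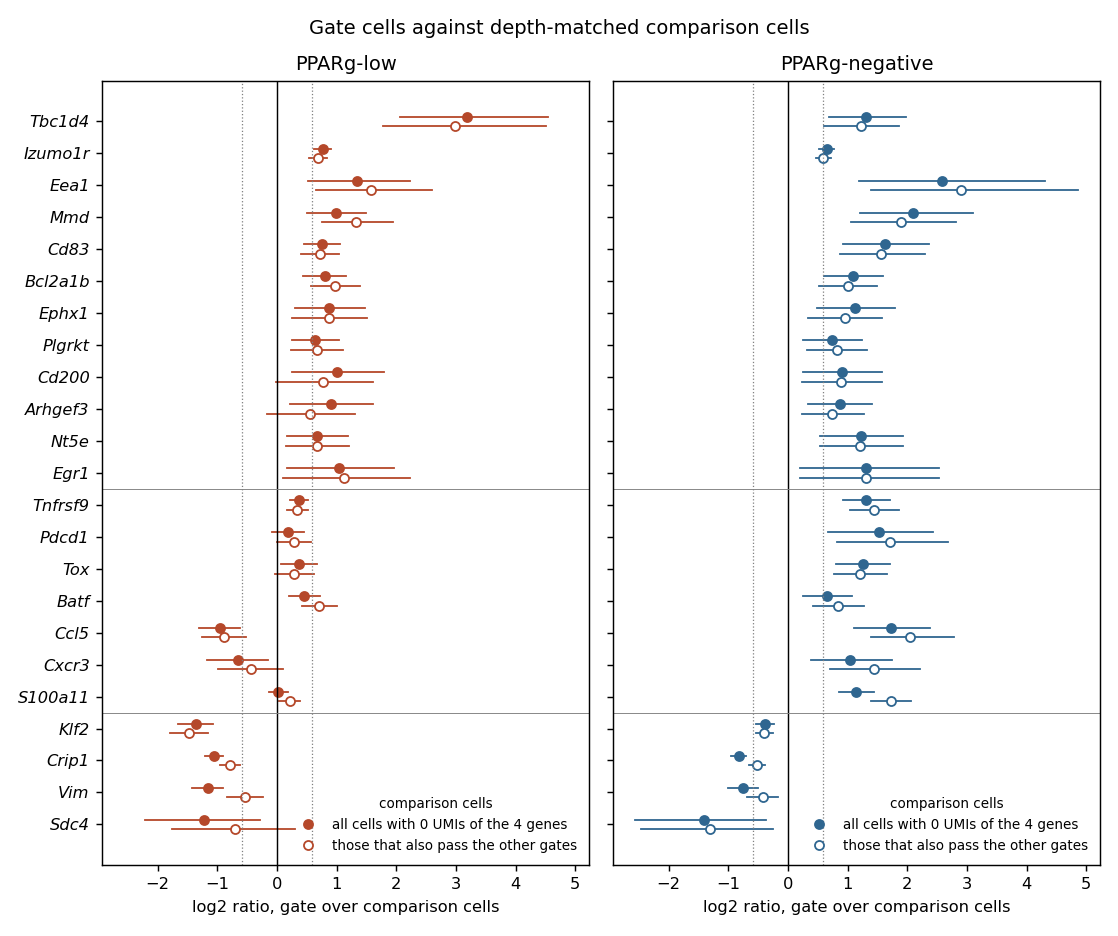
Log2 ratio of CPM in gate over comparison cells for genes named in the text, in the PPARg-low (left) and PPARg-negative (right) library; filled points use all matched comparison cells, open points those that also pass the other 2 gates, lines are 95% counting intervals and dotted lines mark 1.5-fold. Tbc1d4 stands at ratios of 9.04 and 2.49, Vim moves to 0.691 and 0.745 with the stricter comparison cells, and Ccl5 lies on opposite sides of 0 in the 2 libraries.

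Effector Treg genes were higher in gate cells of the PPARg-negative library and mostly not in those of the PPARg-low library. Of the effector list, 7 of 11 measured members were higher and 0 were lower in PPARg-negative gate cells, with a median log2 ratio of 0.90. In PPARg-low gate cells 2 of 16 were higher, Cd83 and Nfil3, and 1 was lower, Tigit, with a median of 0.13. Over all genes, 5.54% were higher and 1.35% lower in PPARg-negative gate cells, and 2.71% and 2.59% in PPARg-low gate cells. The counts of this list and of every list below are to be read beside these shares. The summed level of the list was 1176 CPM in gate against 600 CPM in comparison cells of the PPARg-negative library, and 4149 against 3587 CPM in the PPARg-low library. The PPARg-low comparison cells thus already stood above the PPARg-negative gate cells. The PPARg-low direction depended on the cells compared. Among PPARg-low cells that passed the other gates, the sum was 4251 CPM with 2 UMIs and 3578 CPM with 3 or more. It was 3804 CPM with 1 UMI and 4147 CPM with none. In the PPARg-negative library it was 1012 and 1355 CPM inside, against 787 CPM with 1 UMI and 637 CPM with none. These classes were not matched in depth.

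Icos, a costimulatory receptor of effector and follicular T cells, gave 186 UMIs in gate cells against 60 in comparison cells of the PPARg-negative library (3.09; 2.30 to 4.20). In the PPARg-low library it gave 293 against 303 (0.887; 0.753 to 1.04). Pdcd1, which encodes the inhibitory receptor PD-1, gave 46 against 16 (2.86; 1.59 to 5.42) in the PPARg-negative and 270 against 218 (1.14; 0.947 to 1.36) in the PPARg-low library. Tnfrsf9, which encodes 4-1BB, a costimulatory receptor induced by activation, gave 197 against 79 (2.48; 1.90 to 3.27) in the PPARg-negative library, a call that remained in all 18 alternatives, and 800 against 568 (1.29; 1.16 to 1.44) in the PPARg-low library. For these 3 receptors the intervals of the 2 libraries did not overlap; as each library is 1 sample, no difference between libraries could be tested. The transcription factors Id2 (2.11), Maf (1.87) and Batf (1.58) were also called higher in PPARg-negative gate cells, and had ratios of 0.906, 1.08 and 1.38 in PPARg-low gate cells. Over the alternatives the PPARg-negative count lay between 1 of 3 in ribosome-poor cells and 9 of 11 with 2 comparison cells per gate cell, with 0 lower in each. The PPARg-low median was below 0 without matching (-0.31), with 2 comparison cells per gate cell (-0.03), in ribosome-poor cells (-0.16) and with Cst7 left out of the gate (-0.02).

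Follicular Treg genes were called higher in both libraries, more of them in the PPARg-negative one, and the difference was not tested. In PPARg-negative gate cells 5 of 8 measured members were higher, Tox, Cxcr5, Pdcd1, Slamf6 and Cd200, with a median log2 ratio of 0.78. Pdcd1 is also in the effector list, Slamf6 in the SLAM list and Cxcr5 in the homing list. Their calls are therefore counted in more than 1 list. Tox, a nuclear factor of follicular and chronically stimulated T cells, gave 144 UMIs against 60 (2.39; 1.76 to 3.29), a call kept in all 18 alternatives, and 219 against 156 (1.29; 1.04 to 1.59) in the PPARg-low library. Cxcr5, the receptor that directs cells to B cell follicles, gave 26 against 11 (2.36; 1.12 to 5.28) in the PPARg-negative library, and 12 against 2 (5.50; 1.22 to 50.6) in the PPARg-low library, where its sum was under 30 UMIs. In PPARg-low gate cells 2 of 9 were higher, Cd200 and Tox2, of which Tox2 gave 33 UMIs against 9 (3.36; 1.57 to 7.99), and the median was 0.36. Bcl6, the defining factor of follicular T cells, was too rare to compare, with 4 UMIs against 1 in the PPARg-low and 5 against 4 in the PPARg-negative library.

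Few resting Treg genes were called, but the lower calls stood above the share of all genes in both libraries. The summed level of the list was also lower in gate cells. It was 1162 CPM in gate against 1698 CPM in comparison cells of the PPARg-low library. In the PPARg-negative library it was 2818 against 3597 CPM. Of all genes, 1.35% were lower in PPARg-negative and 2.59% in PPARg-low gate cells. In the PPARg-negative library 0 of 16 were higher and 2 were lower, Satb1 at 132 UMIs against 199 (0.661) and Ly6c1 at 124 against 238 (0.519), with a median log2 ratio of -0.36. In the PPARg-low library 9 members were measured, 1 was higher, Bcl2, and 2 were lower, Klf2 and S1pr1, with a median of -0.28; the S1pr1 call was kept in 8 of 18 alternatives. Of 13 Treg identity genes 2 were higher and 0 lower in each library, Izumo1r and Lrrc32 in PPARg-low and Izumo1r and Nrp1 in PPARg-negative gate cells. Their median was 0.01 in the PPARg-low library, against 0.02 for all genes, and 0.25 in the PPARg-negative library, against 0.08 for all genes, where Ikzf2, which encodes the Treg factor Helios, stood at 1.38 (1.23 to 1.55) without reaching 1.5-fold.

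The lists of known partners of the gate genes differed in their counts of calls. Of all genes, 2.71% were higher and 2.59% lower in PPARg-low gate cells, and 5.54% and 1.35% in PPARg-negative gate cells. Of the NADPH oxidase partners, 0 of 6 measured members were called in either library. Cyba, the membrane partner of the Cybb product, had ratios of 0.965 (0.875 to 1.06) and 0.939 (0.845 to 1.04), and the cytosolic subunit Ncf1 gave at most 4 UMIs in any group. Of the SLAM receptors and partners of SAP, 1 of 12 was lower in PPARg-low gate cells, Ly9 at 0.620, and 1 of 11 was higher in PPARg-negative gate cells, Slamf6 at 204 UMIs against 128 (1.59; 1.27 to 2.0). Fyn, the kinase that SAP recruits, had ratios of 1.37 and 1.28 and was not called. The list median was 0.35 in the PPARg-negative library, against 0.08 for all genes, with Sh2d2a at 1.49 (1.08 to 2.07) and Cd84, a SLAM receptor, at 1.39 (1.07 to 1.80), both under 1.5-fold. In the PPARg-low library the median was 0.08, against 0.02 for all genes.

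Among cathepsins, the targets of cystatins, Ctsd was lower in PPARg-low gate cells (0.666), a call kept in 6 of 18 alternatives, and Ctsb (1.63) and Ctsa (1.75) were higher in PPARg-negative gate cells. Against 5.54% of all genes, the prostaglandin and cyclic AMP list had 4 of 10 members higher in PPARg-negative gate cells. These were Adora2a, the adenosine receptor that raises cyclic AMP, with 34 UMIs against 15 (2.26), Nt5e, Crem and Adcy7. In PPARg-low gate cells 1 of 9 was higher, Nt5e. Antioxidant genes gave 0 calls of 13 in PPARg-low and 0 of 14 in PPARg-negative gate cells.

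**Figure D4:**
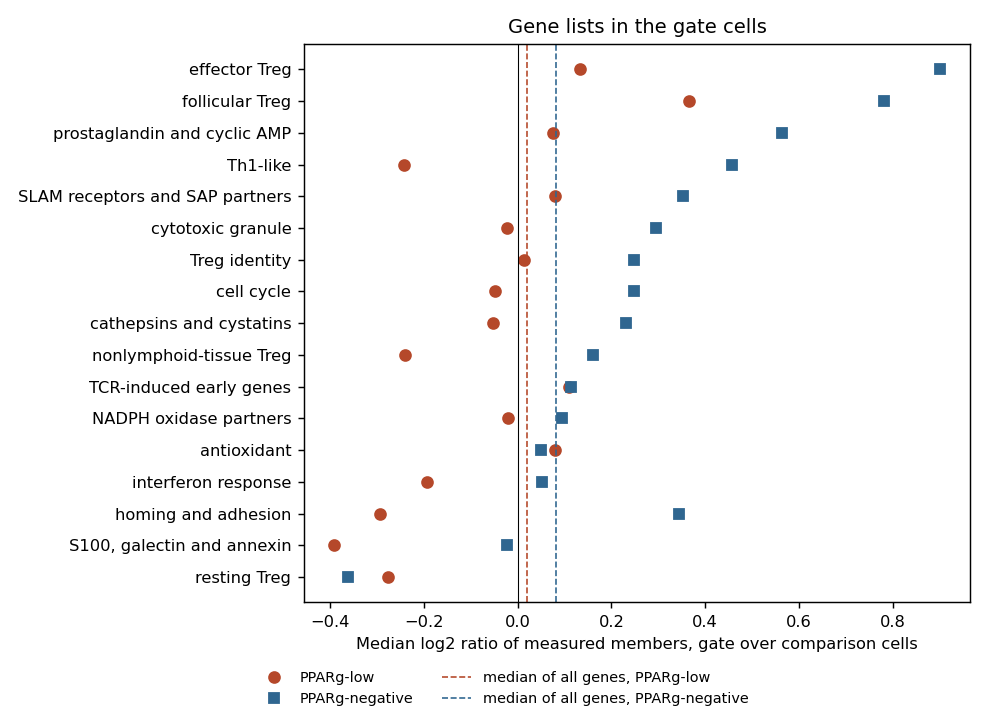
Median log2 ratio, gate over comparison cells, of the measured members of 17 gene lists in the PPARg-low (circles) and PPARg-negative (squares) library; dashed lines mark the median of all genes, 0.02 and 0.08. The effector list stands at 0.13 and 0.90, the homing list at -0.29 and 0.35, and the resting list at -0.28 and -0.36.

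Homing, adhesion and chemokine genes went in different directions in the 2 libraries. In PPARg-low gate cells 0 of 14 members of the homing list were higher and 5 were lower: Cxcr3, S1pr1, S1pr4, Itgb7 and Selplg, of which Itgb7, a gut-homing integrin chain, gave 374 UMIs against 593 (0.578; 0.507 to 0.659). With comparison cells that also passed the other 2 gates 0 of 14 were called, and Itgb7 was at 0.740. In PPARg-negative gate cells 5 of 15 were higher and 0 were lower, among them Cxcr3 and Itga4 (2.20). With those comparison cells 4 of 15 were higher.

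Cxcr3, a chemokine receptor of type 1 responses, gave 57 UMIs against 82 (0.638; 0.447 to 0.905) in the PPARg-low and 60 against 29 (2.06; 1.30 to 3.33) in the PPARg-negative library. Ccl5, a chemokine of activated T cells, gave 113 against 201 (0.516; 0.406 to 0.652) and 96 against 29 (3.30; 2.16 to 5.18). Its UMIs came from 53 gate and 69 comparison cells of the PPARg-low library and from 37 and 17 of the PPARg-negative library. Each Ccl5 call remained in 17 of 18 alternatives, while the PPARg-low Cxcr3 call ended with the stricter comparison cells, at 0.736.

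The S100, galectin and annexin list had 0 of 14 members higher and 4 lower in PPARg-low gate cells, S100a4, S100a6, Vim and Crip1, and 1, Crip1, with the stricter comparison cells, where S100a4 was at 0.844 (0.672 to 1.06). In PPARg-negative gate cells S100a11 (315 UMIs against 142, 2.21; kept in all 18 alternatives) and S100a4 (139 against 78, 1.78) were higher, and Vim and Crip1 were lower.

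Early genes of T cell receptor signalling had 2 of 12 members higher in PPARg-low gate cells, Egr1 and Nr4a1 (64 UMIs against 35, 1.68), and 3 of 10 in PPARg-negative gate cells, Egr1, Dusp1 (1.89) and the activation marker Cd69 (82 against 48, 1.70), with 0 lower in either. Interferon response genes had 0 higher in both and 1 lower in each, Gbp2 (0.606) of 10 in PPARg-low and Usp18 (0.535) of 11 in PPARg-negative gate cells. Of cell cycle genes, 0 of 8 were called in PPARg-low gate cells and 1 of 9 was higher in PPARg-negative gate cells, the replication helicase subunit Mcm6 (44 against 21, 2.09). For comparison, 2.71% of all genes were higher in PPARg-low and 5.54% in PPARg-negative gate cells. The early genes stood above that share in both libraries, on only 2 and 3 calls. Their median log2 ratio was 0.11 in each library, against 0.02 and 0.08 for all genes, so the list as a whole was little higher. Of 8 Th1-like genes measured in the PPARg-low and 5 in the PPARg-negative library, only Cxcr3 and Ccl5 were called, and of 4 cytotoxic granule genes in each library Ccl5 and, in PPARg-negative gate cells, Srgn (765 against 498, 1.53) were called. Of 83 ribosomal protein genes, 0 were called in either library.

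The nonlymphoid-tissue Treg list had 0 of 10 members higher and 2 lower, Dgat2 and Fgl2, in PPARg-low gate cells, and 2 of 7 higher, Rora and Penk, in PPARg-negative gate cells. Klrg1, a receptor of terminally differentiated Tregs, gave 459 UMIs against 506 (0.832) and 38 against 44 (0.860). Against comparison cells that passed the other gates, Klrg1 in the PPARg-negative library stood at 38 against 2 UMIs, a ratio of 18.9 (4.88 to 162), and at 37 against 12 (3.07; 1.56 to 6.46) when these were also matched on ribosomal share. Penk, which encodes the enkephalin precursor, gave 374 against 240 (1.43; 1.21 to 1.69) and 53 against 23 (2.30; 1.38 to 3.93), the last pair from 11 and 8 cells. Without marked doublets and cells with 2 or more UMIs of other lineages, which left 236 of 313 gate cells, Penk in the PPARg-negative library was at 0.896.

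Gate cells with Cst7 and no Sh2d1a differed from those with Sh2d1a and no Cst7, a split chosen after the data were seen that compares 118 with 73 cells in the PPARg-low and 38 with 159 cells in the PPARg-negative library. Of 1970 genes measured in the PPARg-low library, 130 were higher (6.6%) and 80 lower (4.06%) in the Cst7 cells, and of 2214 in the PPARg-negative library, 138 were higher (6.23%) and 43 lower (1.94%). Tnfrsf9 gave 344 UMIs in the Cst7 cells against 118 in the Sh2d1a cells of the PPARg-low library, a ratio of 2.32 (1.87 to 2.88), and 63 against 51 in the PPARg-negative library, a ratio of 6.68 (4.55 to 9.86). Tnfrsf4, which encodes the costimulatory receptor OX40, gave 664 against 220 (2.40; 2.06 to 2.81) and 89 against 211 (2.28; 1.76 to 2.94). Hspa5, the main chaperone of the endoplasmic reticulum, had ratios of 2.73 and 2.47, M6pr, a mannose 6-phosphate receptor that sorts lysosomal enzymes, 2.04 and 3.27, and Srgn, the proteoglycan of secretory granules, 1.63 and 2.09. These genes were higher in the Cst7 cells of both libraries.

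Klf2 was lower in the Cst7 cells, with 27 UMIs against 83 (0.259) in the PPARg-low and 34 against 466 (0.395) in the PPARg-negative library. Pyhin1 was also lower, at 0.530 and 0.353. The resting list had 6 of 13 members lower in the Cst7 cells of the PPARg-negative library, with a median log2 ratio of -0.83. In the PPARg-low library 2 of 6 were lower and 1 was higher, with a median of 0.06. The cells were not matched in depth: the medians were 1787 against 2226 UMIs in the PPARg-low and 1937 against 2732 in the PPARg-negative library, and 55.9% against 21.9% and 36.8% against 10.7% of them were ribosome-poor. The part of depth and ribosomal share in these ratios was not tested.

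Gate cells of the 2 libraries differed widely from each other. Of 5643 genes, 790 were higher in PPARg-low than in PPARg-negative gate cells (14.0%) and 166 were lower (2.94%). The median gene stood at a log2 ratio of 0.22, and relative to it the split was 415 higher and 368 lower. The library, the reporter gate and the ribosomal share, 24.7% of gate cell UMIs against 34.9%, cannot be told apart with 1 library per group.

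The genes furthest apart were largely those in which the libraries' comparison cells differed too. Klrg1 gave 534 UMIs in the PPARg-low gate cells, against 38 in the PPARg-negative ones, a ratio of 15.7 (11.3 to 22.4), and the ratio in the matched comparison cells was 16.0 (11.7 to 22.2). Penk gave 403 and 53 (8.47), Nrn1 172 and 26 (7.37), Bhlhe40 56 and 5 (12.5), Asb2 65 and 4 (18.1) and Fos 50 and 3 (18.6), with ratios in comparison cells of 14.5, 13.4, 22.9, 18.0 and 68.0. The last 3 rested on few UMIs: Bhlhe40 on 33 and 2 (5.86 to 197), Asb2 on 39 and 3 (5.74 to 91.3) and Fos on 49 and 1 (11.6 to 2741). Lgals3 was the exception among the 8 highest: it gave 41 and 1 in gate cells (45.7; 7.75 to 1847) and had a ratio of 2.85 (1.58 to 5.32) in comparison cells. It rests on 1 UMI in the PPARg-negative gate cells, and the call was kept in 2 of 9 alternatives, in the other 7 of which fewer than 30 UMIs were left.

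Lowest in PPARg-low gate cells were mostly genes of the resting list. Ly6c1 gave 2 UMIs against 124 in PPARg-negative gate cells (0.0180; 0.00215 to 0.0663), Ccr7, the lymph node homing receptor, 12 against 135 (0.0990), Satb1 15 against 134 (0.125) and Tcf7, a factor of naive and memory T cells, 29 against 140 (0.231). Nsg2, Gpr83, of the Treg identity list, and Fam101b, of none of the lists, had ratios of 0.174, 0.210 and 0.0768. Fam101b rested on 2 against 29 UMIs, and its call was kept in 3 of 9 alternatives. Its ratio in comparison cells was 0.584 (0.221 to 1.40). Igfbp4 gave 0 against 35 UMIs, a ratio of 0.0955 with the 0 counted as 3 UMIs and an upper 95% limit of 0.124. In comparison cells the ratios were 0.0642 for Ly6c1, 0.148 for Ccr7, 0.112 for Satb1 and 0.308 for Tcf7. For Nsg2, Gpr83 and Igfbp4 they were 0.104, 0.133 and 0.157.

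The library ratio of effector genes was smaller in gate cells than in comparison cells. This restates the gate over comparison ratios given above from nearly the same counts and is not a separate result. All gate cells were used here, also those without a partner. The matched comparison cells were not limited by the other 2 gates, and the part of that limit in these ratios was not tested. All 14 measured members of the effector list had a lower PPARg-low over PPARg-negative ratio in gate than in comparison cells, as did 58.1% of 5645 genes measured. The intervals did not overlap for 5 of the 14, Icos, Id2, Maf, Pdcd1 and Tnfrsf9, and for 1.86% of all genes. The PPARg-low over PPARg-negative ratio of Pdcd1 was 6.26 (4.66 to 8.56) in gate cells and 18.9 (11.4 to 33.7) in comparison cells. For Tnfrsf9 it was 4.58 (3.92 to 5.36) and 9.98 (7.88 to 12.8). Of genes in other lists, it was for Ccl5 2.43 (1.90 to 3.12) and 9.62 (6.50 to 14.7), for S100a11 2.96 (2.61 to 3.36) and 6.13 (5.10 to 7.41), and for Tox 1.80 (1.47 to 2.22) and 3.61 (2.66 to 4.95). The intervals did not overlap for these 3 genes either, which were chosen after their values were seen. The median log2 ratio of the effector list was 1.64 in gate and 2.58 in comparison cells, and that of the resting list was -1.62 and -2.29. Izumo1r, by contrast, did not differ between the libraries, at 1.04 (0.965 to 1.12) in gate and 1.005 (0.905 to 1.12) in comparison cells. Tbc1d4 was equal within counting error in gate cells, at 1.07 (0.784 to 1.47), and lower in PPARg-low comparison cells, at 0.324 (0.120 to 0.753).

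**Figure D5:**
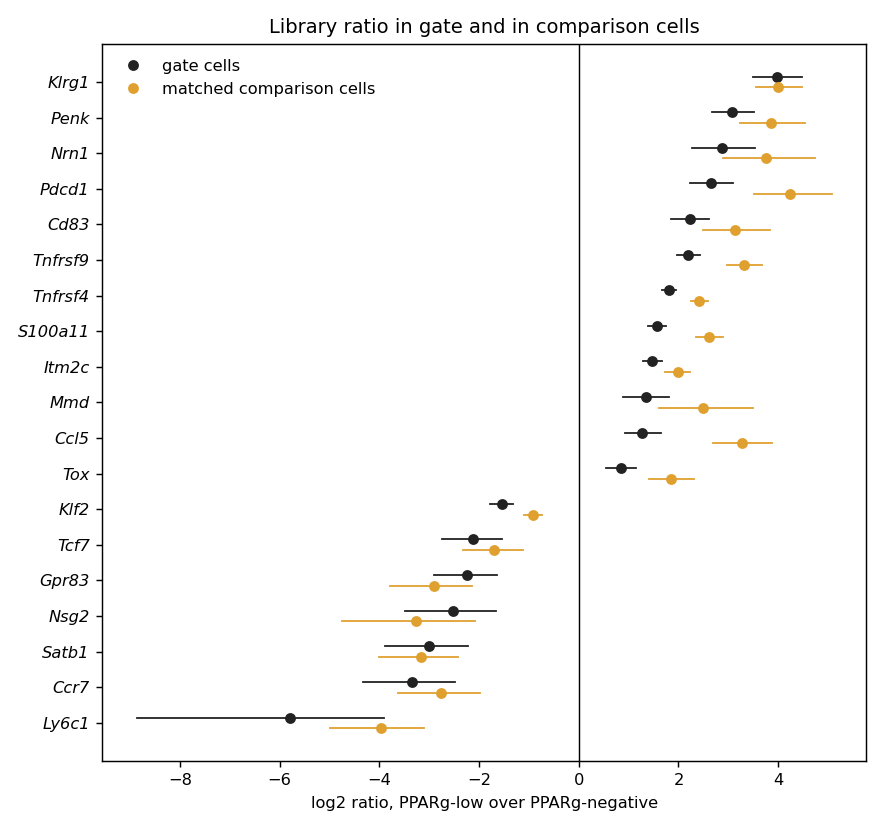
Log2 ratio of CPM in the PPARg-low over the PPARg-negative library for named genes, in gate cells (dark) and in matched comparison cells (amber); lines are 95% counting intervals. Pdcd1, Tnfrsf9, S100a11, Ccl5 and Tox lie nearer to 0 in gate than in comparison cells, while Klrg1 lies at ratios of 15.7 and 16.0.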

How the data were processed

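Tregs had been sorted from pooled mouse spleens and processed on the 10x Chromium Single Cell 3′ v2 platform, per the labels. The deposited matrices hold raw UMI counts per gene and barcode, made with Cell Ranger 2.1.0 on mm10, per the submitters' processing notes. They list 28692 genes and 1992 (PPARg-low) and 2902 (PPARg-negative) barcodes. Whether the authors removed doublets is not given in the sources used here.

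Gates were applied to the raw UMI counts. Each gate cell was paired, deepest first, with the unused cell with none of the 4 genes nearest in log2 total UMIs, within 0.2. Counts were summed over cells, and CPM ratios were given exact conditional binomial 95% intervals. A sum of 0 was counted as 3 UMIs in a ratio. Shares have Clopper-Pearson intervals. Scrublet (in scanpy 1.11.5) marked 11 PPARg-low and 8 PPARg-negative kept cells, 7 and 1 of them gate cells. No p-value was computed, as each group is 1 library. Python 3.11.15, numpy 2.4.6 and scipy 1.17.1 were used, and the procedure was tested on simulated data. Alternatives changed the matching, the ribosomal range, the comparison cells, the gate, the depth, the UMI minimum, the scaling and the cells left out.

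The gate genes, lists and gene naming rule were chosen with earlier results of these data known. Named genes were the 12 highest and 12 lowest by the interval bound nearest to 1 in the library where that bound is nearer to 1, up to 4 per list by the same ranking, and the 8 highest and 8 lowest between libraries, without immunoglobulin, T cell receptor, ribosomal, mitochondrial and predicted genes. Other list members are named where they were called. Cd7 and the genes of the split by Cst7 and Sh2d1a were named after their values were seen. Coordinates are those of the GENCODE M21 annotation of mm10. Results for some genes of the lists are not reported here.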

Additional observations from a re-analysis of the deposited data

Results flagged for a closer look

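Ccl5, Cxcr3 and S100a4 were called in opposite directions in the 2 libraries, each lower in PPARg-low gate cells and higher in PPARg-negative gate cells than in their matched comparison cells. The ratio of Ccl5 was 0.516 in the PPARg-low and 3.30 in the PPARg-negative library, that of Cxcr3 0.638 and 2.06, and that of S100a4 0.591 and 1.78. With comparison cells that also passed the other 2 gates, the PPARg-low calls of Cxcr3 (0.736) and S100a4 (0.844; 0.672 to 1.06) ended, while Ccl5 stayed lower (0.543) and all 3 genes stayed higher in the PPARg-negative library. In ribosome-poor PPARg-negative cells S100a4 gave 28 UMIs against 42 (0.666; 0.397 to 1.10), Cxcr3 14 against 18 (0.776) and Ccl5 12 against 4 (2.99). With Sh2d1a left out of the gate, the PPARg-negative ratios were 0.861 for S100a4, 1.42 for Cxcr3 (0.684 to 3.05) and 4.49 for Ccl5. Each library is a single sample, and the difference between the libraries was not tested. Over all genes, 7 were called in opposite directions, and the other 4, Helz2, Iigp1, Med25 and Serpina3g, belong to none of the lists used.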

How the results depend on the processing

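The main counts of called genes were 272 (PPARg-low), 357 (PPARg-negative) and 28 (both libraries, 7 of them in the lists); 956 genes differed between gate cells of the libraries. Without matching, 731 genes were called in the PPARg-low library, 66 in both, 14 of them among the 28, and 12 in the lists. In ribosome-poor cells only, 130, 45 and 10 genes were called in PPARg-low, in PPARg-negative and in both, 3 of the last among the 28, and 120 between libraries. With cells thinned to 750 UMIs these counts were 127, 127 and 6, 3 of them among the 28, with 3 in the lists and 308 between libraries. At a minimum of 100 UMIs they were 85, 108 and 9, with 3 in the lists and 398 between libraries, and at a minimum of 10 UMIs 45 were called in both and 11 in the lists. Without marked doublets and cells with 2 or more UMIs of other lineages, 15 were called in both, 8 of them among the 28, and 3 in the lists. With Sh2d1a left out of the gate, 205 were called in the PPARg-negative library. Between libraries, 468 genes were called with 3 or more UMIs required and 539 with 2 or more different genes. The thinned gate shares of 8.40% (PPARg-low) and 2.67% (PPARg-negative) became 21.6% and 11.9% without thinning, 5.0% and 1.67% at 500 UMIs, 2.39% and 0.501% with 3 or more UMIs, 2.17% and 1.63% without Cst7, and 5.65% and 0.710% without Sh2d1a; taken apart by ribosomal content, the PPARg-negative share was 2.03% (rich) and 5.69% (poor). Among ribosome-poor PPARg-negative cells, 39 of each kind, the ratios of Tbc1d4 (0.998), Mmd (0.998), Plgrkt (0.915), Cd200 (0.666), Arhgef3 (0.666), Sdc4 (1.5), Batf (0.874), Cxcr3 (0.776) and S100a4 (0.666) changed side. Penk in the PPARg-negative library was at 0.896 without marked doublets and other-lineage cells. Fewer cells, fewer UMIs or a higher count minimum reduced the counts by construction; the cause of the other changes was not tested. The alternatives that left out cells with 5 or more other-lineage UMIs, or combined the stricter comparison cells with ribosomal matching, were chosen after seeing the data and gave 27 and 20 genes called in both, 20 and 16 of them among the 28. No paired analysis was possible because each group is 1 library.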
